A study of Mus musculus with 19 samples.

Results

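The distal chromosome 7 imprinted genes described here are H19, Igf2, Kcnq1ot1, Cdkn1c, Phlda2, Slc22a18, Ascl2 and Kcnq1. They were chosen by name as 8 of the 54119 genes in the data. The rule uses no expression value, but the genes were proposed with earlier results of these data known. All 8 lie on chromosome 7 (GRCm38, GENCODE M21), from H19 (142575529 to 142578143, minus strand) to Phlda2 (143501545 to 143503150, minus strand). RNA was sequenced from mouse embryonic stem cells (mESC) and from epiblast-like cells (EpiLC) derived from them. The mESC were held in N2B27 medium with LIF and inhibitors of GSK3 and MEK1/2, and EpiLC were made by 5 days of FGF5 and Activin A with no LIF. Wild-type XX cells are of the LF2 line (3 mESC and 3 EpiLC libraries) and wild-type XY cells of the E14 line (3 and 3). Tet3-/- cells are XX cells of the LF2 line (4 mESC libraries, #1 to #4, and 3 EpiLC libraries, #1, #3 and #4). The study asked whether TET3, an enzyme that oxidises 5-methylcytosine, is required as mESC become EpiLC. The labels do not say whether mutants are separate clones or how Tet3 was disrupted. Sex and cell line cannot be told apart in this design, and nothing says that libraries of a group came from separate cultures, so p-values measure the spread between these libraries, which may be technical.

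An imprinted gene is expressed mainly from the maternal or from the paternal copy, following DNA methylation that was set in the germ line. At the H19 and Igf2 domain, the insulator protein CTCF binds the unmethylated maternal control region, so that the maternal copy gives H19, a long non-coding RNA, and the paternal copy gives Igf2, a growth factor. At the neighbouring Kcnq1ot1 domain, the paternal copy makes the antisense RNA Kcnq1ot1, which silences Cdkn1c, Phlda2, Slc22a18, Ascl2 and Kcnq1 on the same chromosome, and these are then expressed from the maternal copy, some of them chiefly in the placenta. Total RNA does not tell the copies apart, so every value below is the sum of both.

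Start regions are shown for 4 of the 5 genes with a RefSeq entry, because methylation of CG pairs is the mark that imprinting acts through. The window of Slc22a18, chr7:143473539-143473788 on the plus strand, holds 0 CG pairs and is not printed. Each is the 250 bases before the RefSeq start (GRCm38.p6), 5′ to 3′ on the strand of the gene, with CG pairs in capitals. The Igf2 window lies before the start of the Igf2 transcript that held 55.8% of Igf2 TPM over all libraries, at chr7:142657497-142657746. The Ascl2 window is chr7:142969265-142969514, that of Kcnq1ot1 chr7:143296548-143296797 and that of Phlda2 chr7:143502525-143502774, all 4 on the minus strand.
Igf2: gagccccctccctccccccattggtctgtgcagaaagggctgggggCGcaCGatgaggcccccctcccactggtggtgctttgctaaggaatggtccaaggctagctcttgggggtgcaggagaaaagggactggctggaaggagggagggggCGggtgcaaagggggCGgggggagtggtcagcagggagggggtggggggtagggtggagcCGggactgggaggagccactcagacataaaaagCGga
Ascl2: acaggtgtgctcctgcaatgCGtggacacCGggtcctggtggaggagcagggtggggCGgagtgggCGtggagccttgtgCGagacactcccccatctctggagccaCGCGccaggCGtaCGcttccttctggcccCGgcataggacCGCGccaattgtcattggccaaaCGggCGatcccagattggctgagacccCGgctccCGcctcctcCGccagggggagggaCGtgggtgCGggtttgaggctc
Kcnq1ot1: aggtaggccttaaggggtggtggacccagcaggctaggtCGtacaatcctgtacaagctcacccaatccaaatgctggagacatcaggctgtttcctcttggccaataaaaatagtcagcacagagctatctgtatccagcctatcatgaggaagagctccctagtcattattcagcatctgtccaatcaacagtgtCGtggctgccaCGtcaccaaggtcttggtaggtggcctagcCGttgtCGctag
Phlda2: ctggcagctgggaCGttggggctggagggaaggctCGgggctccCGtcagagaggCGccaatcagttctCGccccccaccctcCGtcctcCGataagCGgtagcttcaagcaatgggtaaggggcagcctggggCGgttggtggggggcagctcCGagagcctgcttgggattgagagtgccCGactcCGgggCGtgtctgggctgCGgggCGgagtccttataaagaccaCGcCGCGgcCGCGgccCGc
The Phlda2 window holds 21 CG pairs and that of Ascl2 19, while Igf2 holds 6 and Kcnq1ot1 5. The median of 32851 RefSeq windows of that length is 6, and 16.35% hold at least as many as Phlda2. The motif GGGCGG, the GC box, read on both strands, is found 2 times in Igf2, 2 times in Phlda2, 1 time in Ascl2 and 0 times in Kcnq1ot1, and 32.74% of all windows hold it. A match, or its absence, describes these letters only.

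H19 is also the host of the microRNA gene Mir675, whose 2 mature products are shown because they are the processed form of this RNA. Capitals mark the seed, bases 2 to 8, in the RefSeq sequences (GRCm38.p6, chromosome 7, minus strand, 142577112 to 142577133 for the first and 142577078 to 142577099 for the other).
miR-675-5p: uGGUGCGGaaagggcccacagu
miR-675-3p: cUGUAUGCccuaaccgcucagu
The seeds differ from each other. The Mir675 row of the table is listed at 0 in all 19 libraries, as is that of Mir483, a microRNA gene inside Igf2. Each lies inside its host gene, whose transcripts may take its reads, so a 0 does not show that the microRNA was absent. H19 levels below are those of the H19 gene, and its microRNAs were not assessed.

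Levels are given in TPM (each library sums to 1000000), which corrects for transcript length. TPM carries no read depth, so counting error cannot be given and the depth behind a value is not known. A gene was tested if it reached 1 TPM in 3 or more libraries, and 7 of the 8 genes did. Kcnq1 did not, since its highest value was 0.261 TPM. Ascl2 passed only through the XX EpiLC libraries, the only group in which it reached 1 TPM, so its tests against XX EpiLC are not independent of the filter. Counts of calls on deposited TPM in the main fit that include such a test are also given without Ascl2. The Ascl2 value from a fit with no filter is added to them. Other counts of these comparisons, on scaled values, by overlap or under alternative settings, include Ascl2 where it was tested. The TPM scale itself moved between groups. Protein-coding genes held from 47.4% to 49.6% of TPM in XY EpiLC and from 30.5% to 32.5% in XX EpiLC. The median log2 difference of all 14972 tested genes was -0.585 for XX against XY in EpiLC and 0.54 for the XY transition, 0.14 for XX and -0.13 for Tet3-/-. A second set of values, scaled by the median of ratios to bring these medians to within 0.02 of 0, is given where it changes a call or a direction, or moves the size of a called change by over 1.5 times. In mESC the markers of naive cells summed to 223 TPM or more in every library. In EpiLC they summed to 40.4 to 46.6 TPM in XX, 9.13 to 9.81 in XY and 10.0 to 29.6 in Tet3-/-. The EpiLC markers (Fgf5, Otx2, Pou3f1, Dnmt3b and Sall2) summed to 40.8 to 48.7 TPM in XX EpiLC, 44.0 to 151 in Tet3-/- EpiLC and 275 to 351 in XY EpiLC, so the EpiLC of the lines differed in these markers. In mESC they summed to 19.6 to 28.9 TPM in XX, 22.6 to 30.2 in Tet3-/- and 8.84 to 23.4 in XY. From XX mESC to XX EpiLC 4 of these markers were called higher, while Otx2 fell from a mean of 18.9 to 11.0 TPM (limma adjusted p 0.0398). Tet3-/- EpiLC #3 stood apart, with mesoderm markers summing to 113 TPM against 2.60 to 3.26 in XX EpiLC, where the mesoderm gene T had 0.793 ± 0.258 TPM (SD, n = 3). In XY these markers summed to 5.23 to 8.48 TPM in mESC and 24.4 to 34.6 in EpiLC, where T had 23.3 ± 5.30 TPM (SD, n = 3). Tet3 itself read 0.761 ± 0.269 TPM in XX mESC (SD, n = 3), against 0.661 ± 0.174 TPM in the mutant mESC (SD, n = 4). In EpiLC it read 1.65 ± 0.386 TPM in XX, from 1.21 to 1.90, and 1.04 ± 0.363 TPM in the mutants, from 0.693 to 1.42 (SD, n = 3 each). The ranges overlapped in both states and neither difference was called (limma adjusted p 0.885 and 0.525), so the Tet3 level does not separate the mutant libraries. Both mutant comparisons and both XX against XY comparisons use the XX libraries, so they are not independent of each other. In bulk RNA, fewer cells of a type and less RNA per cell cannot be told apart.

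**Figure D1:**
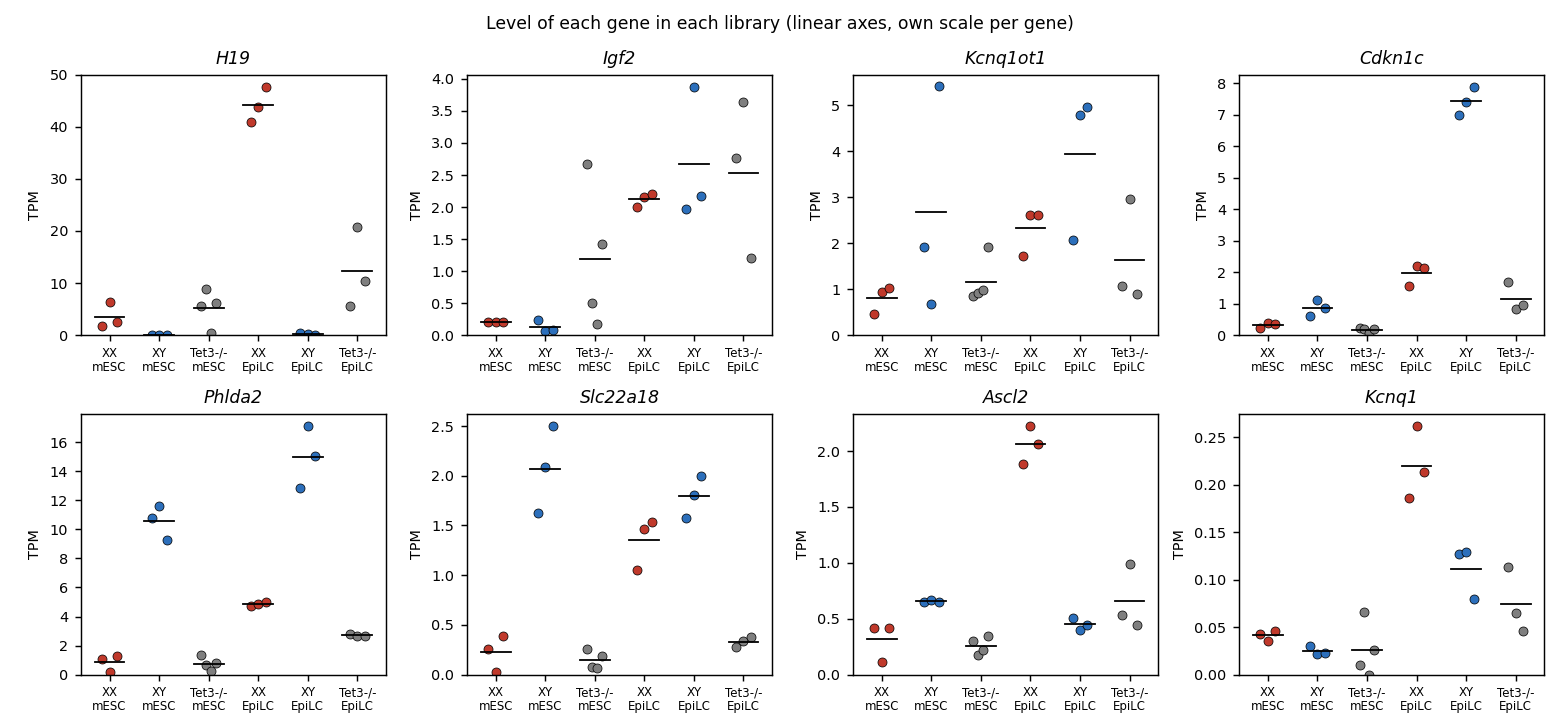
Level of each of the 8 genes in TPM (linear y axis from 0, own scale per gene) in each library of the 6 groups on the x axis, where points are libraries and bars group means. H19 is highest in XX EpiLC (40.9 to 47.6 TPM) and below 0.5 TPM in all 6 XY libraries, while Phlda2 is highest in the XY libraries.

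H19 had the widest range of the 8 genes, from 0.00950 to 47.6 TPM. In XX it stood at 1.73, 6.41 and 2.50 TPM in mESC and at 40.9, 43.8 and 47.6 TPM in EpiLC. In XY it stood at 0.0411, 0.0590 and 0.00950 TPM in mESC and at 0.424, 0.328 and 0.0894 TPM in EpiLC. Every XY library thus lay below every XX library, and XY EpiLC lay below XX mESC. Within a state, XX lay above XY with no overlap for 9.52% of all tested genes in mESC and 9.91% in EpiLC. In Tet3-/- it stood at 5.68, 8.78, 0.423 and 6.27 TPM in mESC #1 to #4 and at 5.64, 20.8 and 10.3 TPM in EpiLC #1, #3 and #4. Mutant mESC #3 was far below the other mutant mESC, and mutant EpiLC overlapped mutant mESC. Every mutant EpiLC library lay below every XX EpiLC library, as for 12.4% of all tested genes. In the order of group means, XX EpiLC (44.1 ± 3.36 TPM, SD, n = 3) came first and Tet3-/- EpiLC (12.2 ± 7.74, SD, n = 3) next with no overlap. Tet3-/- mESC (5.29 ± 3.51, SD, n = 4) and XX mESC (3.55 ± 2.51, SD, n = 3) overlapped each other. XY EpiLC (0.280 ± 0.172, SD, n = 3) and XY mESC (0.0365 ± 0.0250, SD, n = 3) closed the order, and these XY groups overlapped on scaled values. Over all libraries together a transcript of 2286 bases held 97.9% of H19 TPM. In XY its mean was 0.0128 of 0.0365 TPM in mESC and 0.166 of 0.280 TPM in EpiLC.

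Igf2, the ligand of the receptor Igf1r, was low in mESC and present in EpiLC of every genotype. It stood at 0.199, 0.203 and 0.206 TPM in XX mESC, at 0.232, 0.0717 and 0.0813 in XY mESC and at 2.66, 0.496, 0.176 and 1.42 in Tet3-/- mESC. In EpiLC it stood at 2.00, 2.16 and 2.20 TPM in XX, 1.98, 3.88 and 2.17 in XY, and 2.76, 3.64 and 1.20 in Tet3-/-. Mutant mESC #1 had a level as high as EpiLC, whereas mutant mESC #3 was as low as XX mESC. The means in EpiLC were 2.67 ± 1.05 (XY), 2.54 ± 1.23 (Tet3-/-) and 2.12 ± 0.108 TPM (XX), each with SD and n = 3, and these 3 groups overlapped. In this order each group overlapped the next, down to XY mESC at 0.128 ± 0.0899 TPM (SD, n = 3). The antisense transcript Igf2os, which overlaps Igf2, reached at most 0.264 TPM. The strand setting of the quantification is not given in the sources used here, so reads from antisense partners cannot be separated for certain.

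Kcnq1ot1, the antisense RNA that gives the second domain its name, was found in all libraries, from 0.458 to 5.42 TPM. It stood at 0.458, 0.936 and 1.02 TPM in XX mESC and at 1.73, 2.62 and 2.62 TPM in XX EpiLC. In XY mESC the libraries read 1.91, 0.683 and 5.42 TPM, the widest spread of the gene, and in XY EpiLC 2.06, 4.78 and 4.96 TPM. Neighbouring groups overlapped all the way down the order of means, from XY EpiLC (3.93 ± 1.63 TPM, SD, n = 3) to XX mESC (0.806 ± 0.304 TPM, SD, n = 3). In Tet3-/- the values were 0.842, 0.911, 0.993 and 1.92 TPM in mESC and 1.07, 2.96 and 0.891 TPM in EpiLC, with #4 apart in mESC and #3 apart in EpiLC. Kcnq1ot1 is 1 unspliced transcript of 93092 bases that runs against Kcnq1, a potassium channel gene. Kcnq1 was under the filter in every library. Its means were 0.220 ± 0.0383 TPM in XX EpiLC, 0.112 ± 0.0279 in XY EpiLC and 0.0745 ± 0.0348 in Tet3-/- EpiLC (SD, n = 3 each), and at most 0.0412 ± 0.00529 TPM (SD, n = 3) in any mESC group. XX EpiLC lay above the other 5 groups for Kcnq1, with 0.186, 0.261 and 0.213 TPM, but no test was made at these levels.

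Cdkn1c encodes p57, an inhibitor of cyclin-dependent kinases that restrains growth. In XY it stood at 0.619, 1.13 and 0.869 TPM in mESC and at 6.99, 7.39 and 7.88 TPM in EpiLC. XX mESC read 0.214, 0.379 and 0.344 TPM and XX EpiLC 1.57, 2.20 and 2.14 TPM. Every XY library was above every XX library of the same state, as for 12.6% of all tested genes in mESC and 65.8% in EpiLC. In Tet3-/- the values were 0.234, 0.206, 0.0781 and 0.196 TPM in mESC and 1.68, 0.826 and 0.948 TPM in EpiLC. XY EpiLC (7.42 ± 0.445 TPM, SD, n = 3) lay above XX EpiLC (1.97 ± 0.349 TPM, SD, n = 3), which overlapped Tet3-/- EpiLC (1.15 ± 0.464 TPM, SD, n = 3).

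Phlda2, a small protein that limits growth of the placenta, was the most abundant of the 8 genes in XY cells. XY mESC held 10.8, 11.6 and 9.24 TPM and XY EpiLC 12.8, 17.1 and 15.1 TPM. XX mESC held 1.06, 0.156 and 1.28 TPM and XX EpiLC 4.72, 4.87 and 5.02 TPM. The XY mESC were thus above the XX EpiLC. Tet3-/- mESC held 1.32, 0.680, 0.262 and 0.769 TPM, overlapping XX mESC. Tet3-/- EpiLC held 2.81, 2.62 and 2.64 TPM, all below XX EpiLC, as for 12.4% of all tested genes.

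Slc22a18, a membrane transporter gene next to Phlda2, followed a similar order at lower levels. It read 1.63, 2.09 and 2.50 TPM in XY mESC and 1.57, 1.81 and 2.00 TPM in XY EpiLC, against 0.257, 0.0267 and 0.385 TPM in XX mESC. XX EpiLC reached 1.05, 1.47 and 1.53 TPM, below XY EpiLC, as for 65.8% of all tested genes. On scaled values XX EpiLC instead lay above XY EpiLC, with 1.21 to 1.51 against 1.08 to 1.16. Tet3-/- EpiLC stayed at 0.280, 0.337 and 0.378 TPM, overlapping XX mESC and below every XX EpiLC library, as for 12.4% of all tested genes. Tet3-/- mESC read 0.253, 0.0757, 0.0664 and 0.183 TPM.

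Phlda2 and Ascl2 are placental genes, so markers of trophoblast were read beside them. Of 8 such markers 3 were tested. All 8 together summed to 2.44 to 3.58 TPM in XX mESC, 5.51 to 7.97 in XY mESC and 3.19 to 4.23 in Tet3-/- mESC, and to 4.38 to 4.90, 6.10 to 7.45 and 4.01 to 22.0 TPM in XX, XY and Tet3-/- EpiLC. Eomes alone ran from 1.87 to 17.4 TPM in Tet3-/- EpiLC. The tested markers did not share a direction in mESC. Cdx2 had a mean of 4.21 TPM in XY mESC and 0.239 in XX mESC, and Eomes 2.53 and 0.517 TPM, whereas Gata3 had 0.0381 TPM in XY mESC and 1.83 in XX mESC. Among the others, Elf5, Tpbpa and Plac1 were under 0.2 TPM on average in every group, and Esx1 and Hand1 under 0.6 TPM. The part of such cells in the Phlda2 and Ascl2 values was not tested.

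Ascl2, a transcription factor gene needed for the placenta, reached 1 TPM only in XX EpiLC, the group through which it passed the filter. XX EpiLC read 1.89, 2.23 and 2.06 TPM, and no other library reached 1 TPM. XY cells went the other way, with 0.646, 0.670 and 0.653 TPM in mESC and 0.505, 0.399 and 0.440 TPM in EpiLC. The XY ranges did not overlap, and XY mESC lay above XY EpiLC in this way for 12.1% of all tested genes. Tet3-/- read 0.303, 0.177, 0.217 and 0.343 TPM in mESC and 0.535, 0.991 and 0.441 TPM in EpiLC, where #3 was the highest, and XX mESC read 0.414, 0.116 and 0.419 TPM. The second group in the order of means was XY mESC at 0.656 ± 0.0125 TPM (SD, n = 3).

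From mESC to EpiLC, H19, Igf2, Cdkn1c, Phlda2, Slc22a18 and Ascl2 rose in XX cells, while Kcnq1ot1 was not called and Kcnq1 was not tested. Changes are log2 fold changes of (TPM + 1) with the standard error (SE) from limma, fitted on all 14972 genes, and a gene is called at a Benjamini-Hochberg adjusted p under 0.05. In XX, 6 of the 7 were called higher and 0 lower, where 19.2% of all tested genes were called higher, 12.2% lower and 31.3% in either direction. H19 rose by 3.44 (SE 0.54, limma adjusted p 6.03e-05), the 57th highest change of all genes tested. Phlda2 rose by 1.74 (SE 0.24, limma adjusted p 1.49e-05), Igf2 by 1.37 (SE 0.33, limma adjusted p 0.0031) and Ascl2 by 1.22 (SE 0.14, limma adjusted p 2.2e-06). Cdkn1c rose by 1.17 (SE 0.16, limma adjusted p 1.89e-05) and Slc22a18 by 0.95 (SE 0.15, limma adjusted p 8.58e-05). Without Ascl2 the count was 5 of 6 (Ascl2 with no filter, limma adjusted p 4.2e-06). Kcnq1ot1 missed the threshold at 0.88 (SE 0.39, limma adjusted p 0.0952). It was called on scaled values (0.81, limma adjusted p 0.0181). On that scale 7 genes, Ascl2 among them, were called higher, against 24.5% of all genes higher, 25.9% lower and 50.4% in either direction. XX EpiLC lay above XX mESC with no overlap for all 7 tested genes (Ascl2 among them), as for 29.2% of all genes tested. The pseudocount of 1 compresses changes of genes this low. With 0.1 in its place the rises were 2.87 for Igf2, 2.74 for Phlda2, 2.48 for Ascl2, 2.35 for Slc22a18 and 2.33 for Cdkn1c.

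In the XY transition 2 of the 7 were called, both higher, against 41.1% of all tested genes called higher, 9.36% lower and 50.5% in either direction. Cdkn1c rose by 2.18 (SE 0.16, limma adjusted p 5.3e-09) and Igf2 by 1.67 (SE 0.33, limma adjusted p 0.000362), or by 3.61 with a pseudocount of 0.1. Both remained called on scaled values, with changes of 1.58 and 1.22. H19 differed by 0.30 (SE 0.54, limma adjusted p 0.663), or 0.18 on scaled values. Phlda2 differed by 0.47 (SE 0.24, limma adjusted p 0.112) and, on scaled values, by -0.17 (limma adjusted p 0.705). Slc22a18 and Ascl2 had changes of -0.13 (limma adjusted p 0.49) and -0.19 (limma adjusted p 0.264), and on scaled values both fell, by 0.53 (limma adjusted p 0.00758) and 0.38 (limma adjusted p 0.0237), so that 4 genes were then called. That is 2 higher and 2 lower, where 26.4% of all genes were called higher, 25.0% lower and 51.4% in either direction on scaled values. Kcnq1ot1 differed by 0.58 (SE 0.39, limma adjusted p 0.216), by 0.13 on scaled values (limma adjusted p 0.719), and by 1.09 on deposited values (limma adjusted p 0.0128) without XY mESC 3, its highest library.

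In the Tet3-/- transition 3 of the 7 were called, all higher, against 13.6% of all tested genes called higher, 21.5% lower and 35.1% in either direction. Phlda2 rose by 1.1 (SE 0.22, limma adjusted p 0.00068) and Cdkn1c by 0.85 (SE 0.15, limma adjusted p 0.000227). Ascl2 rose by 0.38 (SE 0.13, limma adjusted p 0.0333), but this call was lost without mutant mESC #1 (0.40, limma adjusted p 0.0505), #2 (0.35, limma adjusted p 0.0808) or #3 (0.37, limma adjusted p 0.0721), and without mutant EpiLC #3, where the change was 0.24 (limma adjusted p 0.123). With a pseudocount of 0.1 the changes were 2.15 for Cdkn1c, 1.86 for Phlda2 and 1.03 for Ascl2, all called. The Ascl2 call was lost too in a fit of these groups alone (limma adjusted p 0.0781). H19 (1.21, SE 0.50, limma adjusted p 0.0718) and Igf2 (0.76, SE 0.31, limma adjusted p 0.0608) missed the threshold and were called on scaled values, at 1.35 (limma adjusted p 0.0245) and 0.86 (limma adjusted p 0.0205). This gave 5 genes called higher, against 25.2% of all genes higher, 27.2% lower and 52.4% in either direction. Without mutant mESC #2 H19 rose by 1.52 (limma adjusted p 0.0296), and without mutant EpiLC #1 by 1.62 (limma adjusted p 0.0332). Igf2 was called without mutant mESC #1 (1.06, limma adjusted p 0.00544) or EpiLC #4 (1.07, limma adjusted p 0.0157). Slc22a18 differed by 0.22 (SE 0.14, limma adjusted p 0.261) and Kcnq1ot1 by 0.23 (SE 0.36, limma adjusted p 0.685). Mutant EpiLC lay above mutant mESC with no overlap for 4 of the 7, as for 14.9% of all genes tested.

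**Figure D2:**
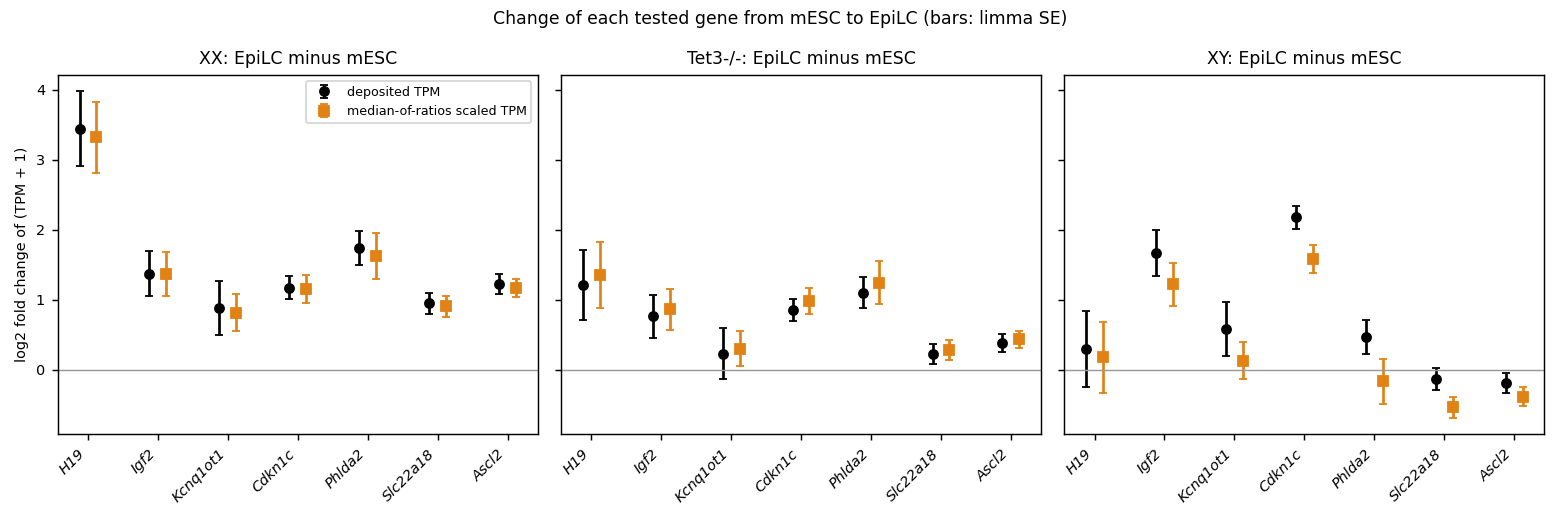
Log2 fold change of (TPM + 1) from mESC to EpiLC (y axis) for the 7 tested genes (x axis) in XX, Tet3-/- and XY cells, on deposited TPM (circles) and on median-of-ratios scaled TPM (squares), with bars of 1 limma SE. All 7 values are above 0 in XX (0.88 to 3.44 on deposited TPM), while in XY Cdkn1c (2.18) and Igf2 (1.67) stand above the rest and Phlda2 is on the other side of 0 once scaled.

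The change from mESC to EpiLC itself differed between XX and XY for 5 of the 7 genes, with 4 higher and 1 lower in XX, against 3.61% of all tested genes called higher, 12.4% lower and 16.0% in either direction. On scaled values 4 were called, all higher and Ascl2 among them, against 10.9% of all genes higher, 12.8% lower and 23.7% in either direction. H19 rose more in XX by 3.15 (SE 0.76, limma adjusted p 0.00797), Ascl2 by 1.42 (SE 0.20, limma adjusted p 0.000102), Phlda2 by 1.27 (SE 0.34, limma adjusted p 0.0149) and Slc22a18 by 1.08 (SE 0.22, limma adjusted p 0.00205). Without Ascl2 the count was 4 of 6, with 3 higher and 1 lower (Ascl2 with no filter, limma adjusted p 0.000132). Cdkn1c rose less in XX, with a difference of -1.0 (SE 0.23, limma adjusted p 0.00607), but on scaled values this was -0.43 (limma adjusted p 0.302), and with a pseudocount of 0.1 it was -0.65 (limma adjusted p 0.391). The H19 difference was 2.44 (limma adjusted p 0.159) with a pseudocount of 0.1, which gives weight to XY values that are all below 0.5 TPM. With that pseudocount Phlda2 had 2.24, Slc22a18 2.54 and Ascl2 2.95, all called. Igf2 (-0.30, SE 0.46, limma adjusted p 0.7) and Kcnq1ot1 (0.30, SE 0.55, limma adjusted p 0.744) were not called. On scaled values Igf2 had the opposite sign (0.15, limma adjusted p 0.85) and Kcnq1ot1 had 0.69 (limma adjusted p 0.215).

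Between Tet3-/- and XX in mESC, 0 of the 7 genes were called by limma, where 0.494% of all genes tested were called higher, 0.107% lower and 0.601% in either direction. On scaled values 0 were called too, against 1.77% higher, 1.42% lower and 3.19% in either direction. The largest difference was that of Igf2, at 0.72 (SE 0.31, limma adjusted p 0.456), which rests on mutants #1 and #4. H19 differed by 0.30 (SE 0.50, limma adjusted p 0.852), or 0.12 on scaled values. All 7 genes overlapped between these groups on deposited values, as did 6 on scaled values, where 8.23% of all genes lay higher in Tet3-/- and 0.982% lower with no overlap on deposited values, although mutant values were spread wider, from 0.423 to 8.78 TPM for H19 and from 0.176 to 2.66 TPM for Igf2.

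In EpiLC 2 of the 7 were called between Tet3-/- and XX, both lower in Tet3-/-, against 0.955% of all tested genes called lower, 0.120% higher and 1.08% in either direction. Ascl2 was lower by -0.90 (SE 0.14, limma adjusted p 0.00344) and Slc22a18 by -0.81 (SE 0.15, limma adjusted p 0.0119), with means in Tet3-/- of 0.656 ± 0.294 and 0.331 ± 0.0492 TPM against 2.06 ± 0.171 and 1.35 ± 0.263 TPM in XX (SD, n = 3 each). Ascl2 was admitted through the XX EpiLC libraries compared here, and without it the count was 1 of 6 (Ascl2 with no filter, limma adjusted p 0.00294). With a pseudocount of 0.1 the differences were -1.58 (limma adjusted p 0.0389) and -1.74 (limma adjusted p 0.0556). H19 had a difference of -1.93 (SE 0.54, limma adjusted p 0.109), the 23rd lowest of all genes. It was called on scaled values (-1.84, limma adjusted p 0.0448), for which 2.50% of all genes were called higher, 2.96% lower and 5.46% in either direction, and without mutant #3 (-2.38, limma adjusted p 0.0401). Phlda2 (-0.67, SE 0.24, limma adjusted p 0.272), Cdkn1c (-0.48, SE 0.16, limma adjusted p 0.245) and Kcnq1ot1 (-0.40, SE 0.39, limma adjusted p 0.951) were not called, nor was Igf2 (0.11, SE 0.33, limma adjusted p 1). XX EpiLC lay above Tet3-/- EpiLC with no overlap for H19, Phlda2, Slc22a18 and Ascl2, 4 of the 7 tested, as for 12.4% of all genes tested. The calls were not firm. A fit of these 2 groups alone called 0 of the 7 (Ascl2 limma adjusted p 0.124, Slc22a18 limma adjusted p 0.0859), the Slc22a18 call was lost without XX EpiLC 2 (limma adjusted p 0.0946) or 3 (limma adjusted p 0.107), and Ascl2 left the test whenever an XX EpiLC library was left out, since it then reached 1 TPM in only 2 libraries.

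The difference between the Tet3-/- and XX transitions, which share the line but not libraries, was called for 0 of the 7 genes by limma, where 0.174% of all genes were called, all of them lower. On scaled values 0 of the 7 were called too, against 0.247% of all genes higher, 0.414% lower and 0.661% in either direction. The largest differences, all lower in Tet3-/-, were those of H19 (-2.24, SE 0.74, limma adjusted p 0.394), Ascl2 (-0.84, SE 0.20, limma adjusted p 0.0987) and Slc22a18 (-0.73, SE 0.21, limma adjusted p 0.264). Ascl2 was admitted through the XX EpiLC libraries used here. H19 was called without mutant mESC #3 (-2.85, limma adjusted p 0.0236), its lowest mutant library, and Ascl2 without mutant EpiLC #3 (-0.98, limma adjusted p 0.0112). Mutant EpiLC #3 is the library with 94.3 TPM of T. The part of mesoderm cells in these values was not tested.

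Between XX and XY in mESC, 4 of the 7 were called, 1 higher and 3 lower in XX, against 6.43% of all tested genes called higher, 7.73% lower and 14.2% in either direction. H19 was higher in XX by 2.00 (SE 0.54, limma adjusted p 0.017), or by 4.54 with a pseudocount of 0.1. Its adjusted p was 0.056 without XX mESC 2, 0.0513 without XY mESC 1 and 0.0544 without XY mESC 3, all by limma. Phlda2 was lower in XX by -2.71 (SE 0.24, limma adjusted p 4.08e-07), the 36th lowest of all genes, and Slc22a18 by -1.33 (SE 0.15, limma adjusted p 8.9e-06). Slc22a18 had -2.94 with a pseudocount of 0.1. Cdkn1c was at the threshold, with -0.51 (SE 0.16, limma adjusted p 0.047) or -1.23 with a pseudocount of 0.1, and was not called on scaled values (-0.47, limma adjusted p 0.0873), where 17.7% of all genes were called higher, 13.6% lower and 31.3% in either direction. Without XX mESC 1 or 3 or XY mESC 2 or 3 the limma adjusted p of Cdkn1c was from 0.103 to 0.163. Kcnq1ot1 (-0.82, SE 0.39, limma adjusted p 0.178) was called without XY mESC 2 (-1.27, limma adjusted p 0.0257). Ascl2 (-0.34, SE 0.14, limma adjusted p 0.128) and Igf2 (0.10, SE 0.33, limma adjusted p 0.881) were not called.

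In EpiLC, 4 of the 7 were called between XX and XY, 2 higher and 2 lower in XX, against 5.23% of all tested genes called higher, 42.0% lower and 47.2% in either direction. H19 was higher in XX by 5.15 (SE 0.54, limma adjusted p 1.29e-06), the 3rd highest difference of the 14972 genes, and its mean TPM was 157 times that of XY, or 251 times on scaled values. Ascl2 was higher in XX by 1.08 (SE 0.14, limma adjusted p 1.88e-05), and by 1.98 with a pseudocount of 0.1. Without Ascl2, admitted through XX EpiLC, the count was 3 of 6, with 1 higher and 2 lower (Ascl2 with no filter, limma adjusted p 2.42e-05). Cdkn1c was lower in XX by -1.51 (SE 0.16, limma adjusted p 2.06e-06), and by -0.90 on scaled values (limma adjusted p 0.00229). Phlda2 was lower by -1.44 (SE 0.24, limma adjusted p 0.000197), but on scaled values the difference was -0.76 (limma adjusted p 0.0832). On that scale 3 of the 7 were called, 2 higher (H19 and Ascl2) and 1 lower, against 17.2% and 16.6% of all genes, and 33.8% in either direction. Igf2 (-0.20, SE 0.33, limma adjusted p 0.628), Kcnq1ot1 (-0.52, SE 0.39, limma adjusted p 0.266) and Slc22a18 (-0.25, SE 0.15, limma adjusted p 0.173) were not called, and on scaled values each had the opposite sign, at 0.30, 0.03 and 0.18.

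The other genes of the region were read in the same way. Of 23 listed neighbours 11 were tested. In the XX transition 2 of the 11 were called higher and 0 lower, or 3 and 3 on scaled values. Of all tested genes 19.2% were called higher there and 12.2% lower, or 24.5% and 25.9% on scaled values. Osbpl5, an oxysterol-binding protein gene beyond Phlda2, rose by 2.48 (SE 0.27, limma adjusted p 8.24e-07) and Cd81, a tetraspanin gene between Ascl2 and Kcnq1, by 0.66 (SE 0.20, limma adjusted p 0.0187). Osbpl5 rose in each genotype, by 1.59 in XY (limma adjusted p 7.66e-05) and by 2.29 in Tet3-/- (limma adjusted p 7.08e-07). Between Tet3-/- and XX 0 of the 11 were called in either state, on deposited or scaled values. Of all tested genes 0.601% were called in mESC and 1.08% in EpiLC, or 3.19% and 5.46% on scaled values. Between XX and XY in mESC 14.2% of all tested genes were called in either direction, or 31.3% on scaled values. Of the 11, 0 were called on deposited values and 2 on scaled values, both lower in XX. These were Dhcr7 (-0.50, limma adjusted p 0.0241) and Tnfrsf22 (-0.62, limma adjusted p 0.0174). Nap1l4, a histone chaperone gene next to Phlda2, differed by -0.26 there on scaled values (limma adjusted p 0.091), where Phlda2 had -2.55. Between XX and XY in EpiLC 4 of the 11 were called higher and 4 lower on deposited values, or 4 and 2 on scaled values. Of all tested genes 5.23% were called higher there and 42.0% lower, or 17.2% and 16.6% on scaled values. Cd81 was higher in XX by 0.84 (SE 0.20, limma adjusted p 0.00384), or 1.57 on scaled values, and Tspan32, next to Ascl2, by 0.53 (SE 0.17, limma adjusted p 0.0209). Ascl2, Tspan32 and Cd81 follow each other along the listed genes, and all 3 were called higher in XX EpiLC on both scales. However, Ascl2 was admitted to the test through those XX EpiLC libraries. Of the listed genes on either side, Th was under the filter. Tssc4 had means of 9.40 TPM in XX EpiLC and 13.6 TPM in XY EpiLC. From mESC to EpiLC mean Tspan32 fell from 1.18 to 0.736 TPM in XX and from 1.59 to 0.197 TPM in XY. The fall in XX was not called (limma adjusted p 0.217). Mean Cd81 rose from 114 to 179 TPM in XX and fell from 166 to 99.4 TPM in XY. In the XX minus XY difference of transitions 2 of the 11 were called higher, or 4 on scaled values, and 0 lower. Of all tested genes 3.61% were called higher there and 12.4% lower, or 10.9% and 12.8% on scaled values. The 2 genes were Tspan32 and Cd81. The difference was 0.81 for Tspan32 (SE 0.25, limma adjusted p 0.0317) and 1.39 for Cd81 (SE 0.29, limma adjusted p 0.0026).

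**Figure D3:**
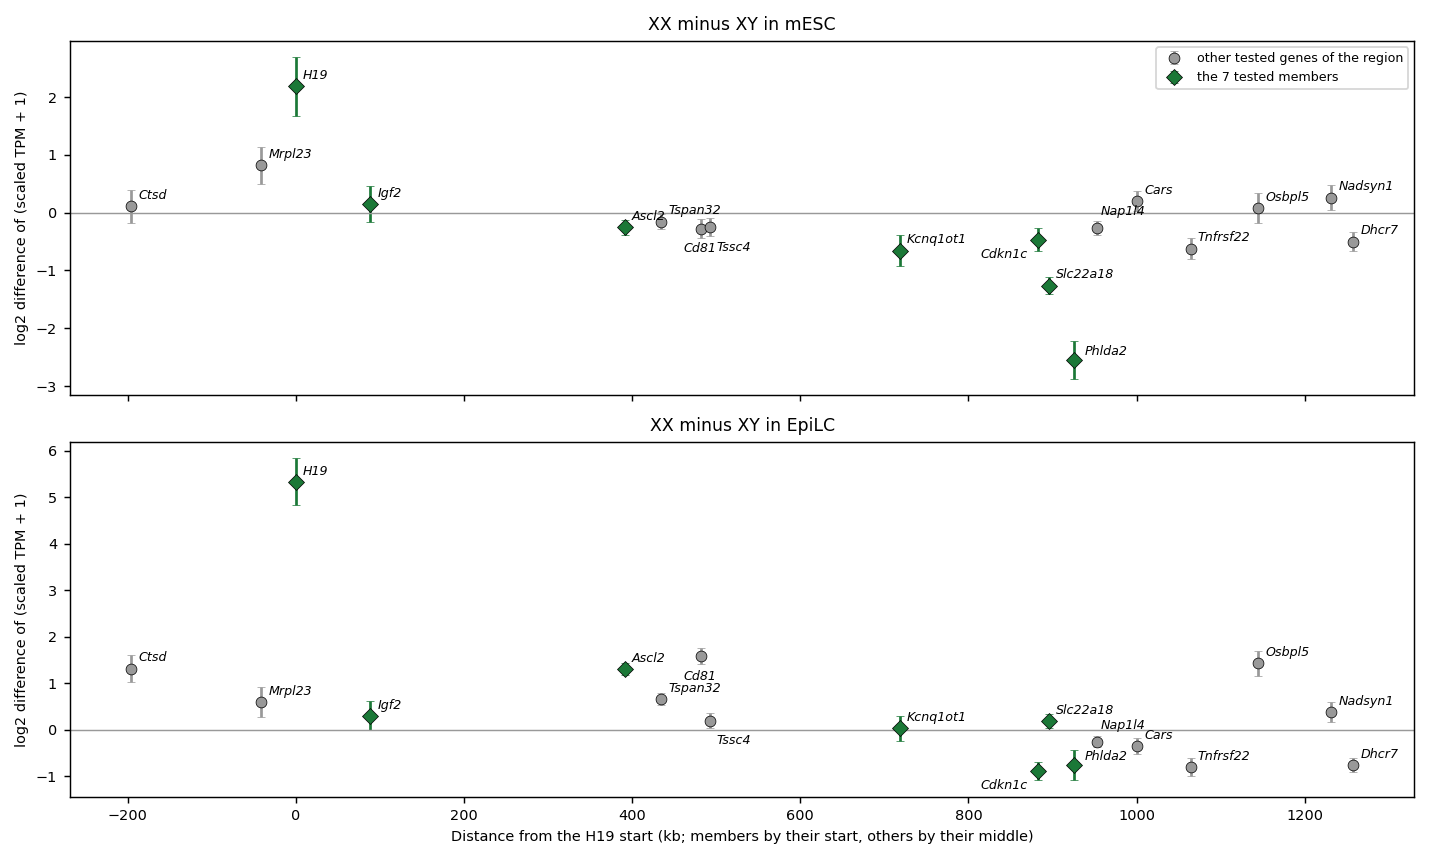
Log2 difference of (scaled TPM + 1) between XX and XY (y axis) against distance in kb from the H19 start (x axis), in mESC (upper panel) and EpiLC (lower panel), for the 7 tested genes (diamonds) and the 11 other tested genes of the region (circles), with bars of 1 limma SE. H19 stands above all others in both panels (2.19 and 5.33), and Phlda2 and Slc22a18 are lowest in mESC (-2.55 and -1.26).

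Around Igf2, the receptors and binding proteins of the same pathway were read from a list of 13 genes, of which 11 were tested. In the XX transition 6 were called higher and 2 lower, in XY 9 and 0, and in Tet3-/- 6 and 3. On scaled values these were 7 and 3, 8 and 1, and 7 and 3. Of all tested genes 19.2% were called higher and 12.2% lower in XX, 41.1% and 9.36% in XY, and 13.6% and 21.5% in Tet3-/-. On scaled values the shares were 24.5% and 25.9%, 26.4% and 25.0%, and 25.2% and 27.2%. Igf1r, the receptor that carries the Igf2 signal, rose by 2.72 in XX (SE 0.33, limma adjusted p 3.7e-06), from 1.13 ± 0.658 to 12.8 ± 2.43 TPM (SD, n = 3 each). It rose by 2.59 in XY (limma adjusted p 3.88e-06) and by 2.51 in Tet3-/- (limma adjusted p 3.41e-06). Igfbp3, a binding protein that holds IGF outside the cell, rose in XX by 4.34 (limma adjusted p 3.81e-07), in XY by 5.35 (limma adjusted p 1.54e-08) and in the mutants by 5.02 (limma adjusted p 1.88e-08). Igf2r, the imprinted receptor that clears Igf2, rose in XY by 0.90 (limma adjusted p 0.0241; 0.25 and 0.464 on scaled values) and fell in Tet3-/- by 0.97 (limma adjusted p 0.0153). In XX its change was -0.65 (limma adjusted p 0.134), called on scaled values (-0.86, limma adjusted p 0.0125). Igfbp2 moved in opposite directions, falling by 1.54 in XX (limma adjusted p 1.94e-05) and rising by 1.97 in XY (limma adjusted p 5.6e-07), or by 1.30 on scaled values, and the difference of these changes was -3.51 (SE 0.31, limma adjusted p 1.02e-06). For Igf2 itself that difference was not called.

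The other 2 inhibitors of the Cdkn1c family were also read. Cdkn1a, which encodes p21, was at 43.5 ± 9.70 TPM in XY mESC and 15.6 ± 3.83 TPM in XX mESC (SD, n = 3 each), lower in XX by -1.42 (SE 0.34, limma adjusted p 0.00773), and it fell by 0.93 in the XY transition (limma adjusted p 0.0291), where Cdkn1c rose. On scaled values Cdkn1a fell there by 1.57 (limma adjusted p 1.01e-05). Cdkn1b, which encodes p27, rose by 1.05 in XY (limma adjusted p 0.00204) and by 0.68 in XX (limma adjusted p 0.0462), and neither was called on scaled values (0.40 and 0.48, limma adjusted p 0.28 and 0.199).

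All 17 genes of a list on imprint control were tested. Besides factors that set or keep imprints, it holds Tet1, Tet2 and Tet3, genes of enzymes that oxidise 5-methylcytosine, and the imprinted gene Plagl1. Between Tet3-/- and XX 0.107% of all tested genes were called lower in mESC and 0.955% in EpiLC, or 1.42% and 2.96% on scaled values. Of the 17, 0 were called in mESC and 0 in EpiLC on deposited values, and 1 and 3 on scaled values, all lower in Tet3-/-. In EpiLC these were Zfp57, the zinc finger protein that protects imprints (-0.84, limma adjusted p 0.00291), Tet1 (-0.79, limma adjusted p 0.0332) and the histone methyltransferase gene Ehmt2 (-0.51, limma adjusted p 0.0264). Between XX and XY in EpiLC 5 were called higher and 7 lower on deposited values, and 6 and 3 on scaled values. The shares of all tested genes there were 5.23% higher and 42.0% lower, or 17.2% and 16.6% on scaled values. Dnmt3l, a cofactor of the de novo methyltransferases, stood at 17.6 ± 0.505 TPM in XX EpiLC and 0.327 ± 0.121 TPM in XY EpiLC (SD, n = 3 each), with a difference of 3.81 (SE 0.49, limma adjusted p 1.3e-05). Dnmt3a, a de novo methyltransferase, was lower in XX EpiLC by -1.78 (SE 0.26, limma adjusted p 5.08e-05), or -1.08 on scaled values. Plagl1, an imprinted zinc finger gene, was 20.8 ± 7.21 TPM in XX mESC and 0.859 ± 0.386 TPM in XY mESC (SD, n = 3 each), a difference of 3.52 (SE 0.28, limma adjusted p 1.09e-07). Tet1 was also higher in XX mESC, by 4.04 (SE 0.36, limma adjusted p 4.26e-07). Ctcf, whose product binds the H19 control region, was not called between XX and XY in mESC, and its EpiLC difference of -0.93 (limma adjusted p 0.0356) was -0.21 on scaled values (limma adjusted p 0.234).

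Among all tested genes, those with the pattern nearest to that of H19 were found by the mean absolute difference of log2(TPM + 1), after centring, over 19 libraries. They were Cryab (0.65), a small heat shock protein gene on chromosome 9, Peg10 (0.75), an imprinted retrotransposon-derived gene on chromosome 6, and Tgm1 (0.80), a transglutaminase gene on chromosome 14. Cryab held 64.0 TPM on average in XX EpiLC, 34.6 in Tet3-/- EpiLC and 3.81 in XY EpiLC. Peg10 held 69.1, 83.9 and 5.53 TPM in the same order. The same 3 genes came first on scaled values. The Peg10 mean in mutant EpiLC rests on #3, with 205 TPM. The other 2 mutant EpiLC libraries had 24.2 and 22.5 TPM, below the 58.1 to 75.5 TPM of XX EpiLC. For Igf2 the nearest gene was Prmt2 (0.23), for Cdkn1c Adcy6 (0.19), for Phlda2 Dab1 (0.42) and for Kcnq1ot1 Fam13b (0.09). On scaled values Prmt2 and Adcy6 stayed first, while Fstl1 (0.42) came first for Phlda2 and Birc6 (0.09) for Kcnq1ot1. Between members, the closest pair was Kcnq1ot1 and Slc22a18 (0.37) and the most distant H19 and Phlda2 (2.33). H19 and Igf2 differed by 1.45. These distances grow with the range of a gene, and no test was made of them.

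**Figure D4:**
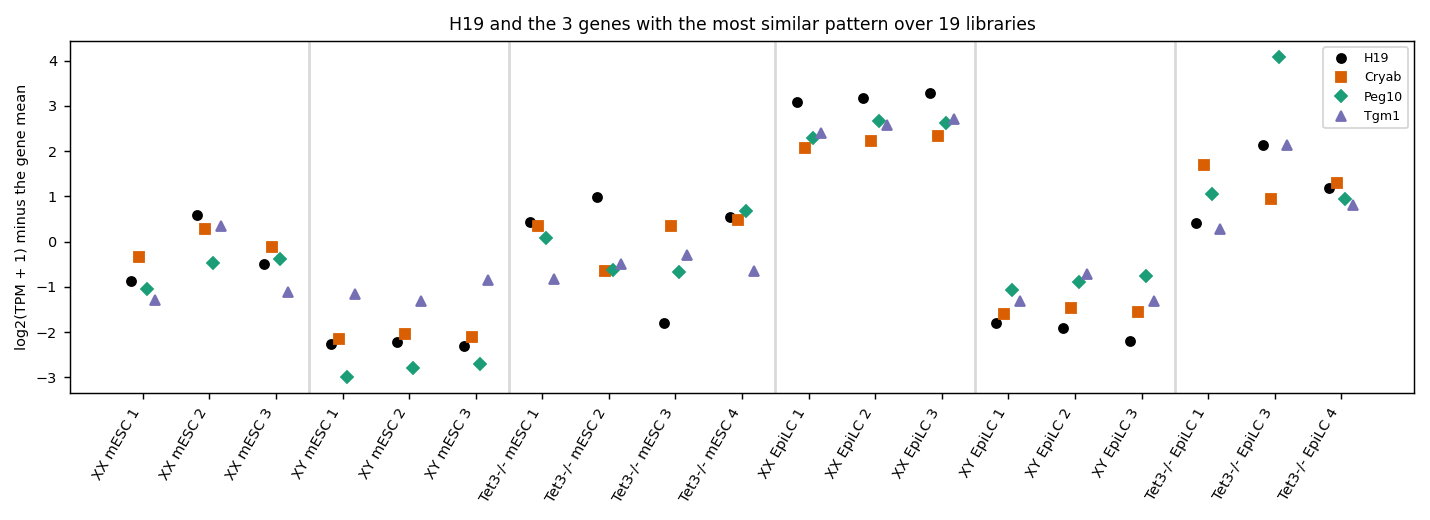
Level of H19 and its 3 nearest genes, as log2(TPM + 1) minus the mean of each gene (y axis), in the 19 libraries (x axis, points offset within a library, groups divided by lines). All 4 genes are above their means in the 3 XX EpiLC libraries and below them in the 3 XY EpiLC libraries, and the highest point of Peg10 is Tet3-/- EpiLC #3 (205 TPM).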

How the data were processed

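Total RNA was sequenced from stranded libraries after rRNA depletion, per the labels' protocols. The submitters' processing notes name FastQC 0.11.7, Trimmomatic 0.35, Salmon 1.1.0 and GRCm38, with no roles. The authors deposited TPM for 140948 transcripts in 19 libraries, each summing to 1000000. Columns were matched to libraries by their header. TPM was summed per gene with GENCODE M21, where 1096 unmatched transcripts (at most 0.215% of TPM) were left out. The model, with 6 groups over all libraries, used log2(TPM + 1) of 14972 genes that reached 1 TPM in at least 3 libraries (limma 3.58.1, eBayes with trend, R 4.3.3). P-values were adjusted by Benjamini-Hochberg within each of 9 contrasts. The fit was tested on simulated data. The genes described and the gene lists were chosen with earlier results of these data known. All 8 genes and any list gene may be named, and the 3 nearest patterns are given for tested genes that range over at least 2 log2 units. RefSeq start windows matched 5 of the 8 genes. As alternatives, the pseudocount was 0.1, the filter was dropped or set to 5 TPM, and there were 3 other scalings, fits of the compared groups, eBayes without trend, a replicate block, coding transcripts only, a fold minimum and leaving out each library.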

Additional observations from a re-analysis of the deposited data

Results flagged for a closer look

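In Tet3-/- mESC, Kcnq1ot1 in mutant #4 lay far from the other 3 libraries, with 1.92 TPM against 0.842 to 0.993. Its gap to the nearest library was 0.860 of the whole range of the group, above the critical value of 0.829 of Dixon's test for 4 samples. 8 such groups were tested, 1 per gene, and chance alone marks about 1 in 20.

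For 5 genes the mESC to EpiLC change differed between XX and XY cells by limma. The difference, XX minus XY on the log2 scale, was 3.15 for H19, 1.42 for Ascl2, 1.27 for Phlda2, 1.08 for Slc22a18 and -1.0 for Cdkn1c. Sex and cell line cannot be told apart in it, and the EpiLC markers summed to 40.8 to 48.7 TPM in XX and 275 to 351 in XY EpiLC, whose part in these differences was not tested.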

How the results depend on the processing

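Of the counts of genes called, those that moved by over 1.5 times are given here. With a filter of 5 TPM, which removes members from the test, the XX transition gave 3, the XY transition 1, Tet3-/- against XX in EpiLC 0, XX against XY in mESC 2 and the XX minus XY difference of transitions 3. Median-of-ratios scaling gave 4 in the XY and 5 in the Tet3-/- transition, quantile normalization 4 and 6, and rescaling over nuclear protein-coding genes 5 in the latter. With a pseudocount of 0.1 Tet3-/- against XX in EpiLC gave 1 and the XX minus XY difference of transitions 3. Without a filter XX against XY in mESC gave 2, and a fit of only the groups compared gave 0 for Tet3-/- against XX in EpiLC. With a minimum log2 size of 1 added to the call, there was 1 in the Tet3-/- transition and 0 for Tet3-/- against XX in EpiLC. With scaling, the share of all tested genes called went from 50.5% to 51.4% in the XY and from 35.1% to 52.4% in the Tet3-/- transition. Shares of all genes are not given for the other settings or for the fits below. Those counts therefore do not set these genes apart from the rest. Beyond the removal of genes from the test, the cause was not tested.

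Leaving out 1 library at a time gave 5 to 6 calls in the XX, 2 to 3 in the XY and 2 to 4 in the Tet3-/- transition, 0 in mESC and 0 to 3 in EpiLC for Tet3-/- against XX, 2 to 4 and 3 to 4 for XX against XY, 0 to 1 for the Tet3-/- minus XX and 4 to 5 for the XX minus XY difference of transitions. The lowest counts were without XX EpiLC 2 or 3 (Tet3-/- against XX in EpiLC) and XY mESC 3 (XX against XY in mESC, 2), and the count of 1 in the Tet3-/- minus XX difference was without mutant mESC #3 or EpiLC #3.

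No called change reversed. Among uncalled ones, Phlda2 in the XY transition was -0.17 (scaling) and -0.13 (quantile), and between Tet3-/- and XX mESC 0.051 with a pseudocount of 0.1. Between XX and XY EpiLC, scaling, quantile normalization and protein-coding rescaling gave 0.30, 0.29 and 0.29 for Igf2 and 0.18, 0.18 and 0.16 for Slc22a18, and the first pair 0.029 and 0.018 for Kcnq1ot1. Igf2 in the XX minus XY difference of transitions was 0.15 and 0.18. Leaving out a library turned Kcnq1ot1 in the Tet3-/- transition (-0.11 to 0.43) and in the XX minus XY difference (-0.21 to 0.75), Igf2 in EpiLC between Tet3-/- and XX (-0.11 to 0.42) and between XX and XY (-0.33 to 0.022), and between Tet3-/- and XX mESC H19 (-0.012 to 0.92), Phlda2 (-0.33 to 0.16), Slc22a18 (-0.21 to 0.0074) and Ascl2 (-0.17 to 0.0022).

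Whether replicate numbers pair the libraries is not settled. Deviations of same-numbered mESC and EpiLC libraries correlated from -0.049 to 0.303 across genes, and those of differently numbered ones from -0.344 to 0.282. Mutants carry the same numbers in both states, and their same-numbered libraries correlated at 0.271 (#1), 0.303 (#3) and -0.02 (#4). The main fit used no pairing. With the number as a replicate block the Tet3-/- transition kept 2 calls and XX against XY in mESC 3. Ascl2 in the former (0.35, limma adjusted p 0.168) and Cdkn1c in the latter (-0.51, limma adjusted p 0.0561) were no longer called. TPM keeps no depth, so low genes such as Kcnq1 could not be weighed by counts.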
